A study of Mus musculus with 16 samples.

Results

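Il1rl1, Areg, Gata3, Rora, Klrg1, Il18r1 and Pparg are 7 genes that are used to describe tissue-resident, repair-associated regulatory T cells (Treg). They were taken by name, 7 of the 49585 genes in the count table, and all 7 were in it. RNA was measured in Treg and conventional CD4-positive T cells of BALB/c-background Foxp3 IRES-GFP mice, in which green fluorescent protein reports Foxp3, the transcription factor that defines Treg. Pregnant uterine Treg came from the uterus on days 6 to 8 of pregnancy by the source labels (the titles of 3 of the 4 samples give a later last day), in pools of 3 to 8 mice. Uterine Treg, lymph node Treg (para-aortic nodes) and uterine conventional T cells (CD4conv) came from non-pregnant mice in pools of 20. The cell labels are Foxp3-positive and CD25-negative for both uterine Treg groups, Foxp3-positive and CD25-positive for lymph node Treg, and Foxp3-negative for CD4conv. CD25 is the IL-2 receptor alpha chain, encoded by Il2ra, so the sorting gate changed together with the tissue. All groups carried the same reporter, and no treatment, age or other allele is given in the labels.

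Each group had 4 libraries. Pregnant uterine Treg and CD4conv were sequenced in the first of 2 batches, and uterine Treg and lymph node Treg in the second, so that pregnant against non-pregnant uterine Treg, uterine Treg against CD4conv, and pregnant uterine Treg against lymph node Treg each crossed the batches. In these 3 comparisons the batch and the group cannot be told apart. Pools are separate samples, and nothing in the labels says that they were also prepared on separate days.

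IL-33 is an alarm cytokine released by damaged barrier and stromal cells. Its receptor subunit ST2, the product of Il1rl1, pairs with IL1RAP and signals through MyD88, and in mouse tissue Treg this signal favours survival, expansion and production of amphiregulin. Amphiregulin, the product of Areg, is a ligand of the epidermal growth factor receptor that acts on epithelial and stromal cells during repair. GATA3 and PPARγ are transcription factors of tissue Treg in mouse skin, gut or fat, RORα acts in type 2 lymphocytes and skin Treg, IL-18R1 binds IL-18, and KLRG1 is an inhibitory receptor of differentiated lymphocytes that binds cadherins.

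Total counts ranged between 1718558 and 15190212 per library. Some reads fell in genes of no known use to T cells. Reads in 1429 olfactory and vomeronasal receptor genes gave a background per exonic base that, spread over all exons, would account for 8.68% to 53.5% of a library's counts. It exceeded 30% in 5 libraries: pregnant uterine Treg 2 and 4, uterine Treg 3 and 5, and lymph node Treg 3. Fits without these 5 keep only pregnant uterine Treg 1 and 3, uterine Treg 1 and 2, and lymph node Treg 1, 2 and 5 in those groups. Such fits therefore rest on few libraries. Foxp3 had 192 to 814 counts per 1e6 counts of the library (CPM) in pregnant uterine Treg, 227 to 714 CPM in uterine Treg, 407 to 784.5 CPM in lymph node Treg and 0.503 to 3.26 CPM in CD4conv, so the Foxp3 gate was visible in every library. Il2ra had 76.7 to 190 CPM in pregnant uterine Treg and 54.4 to 125 CPM in uterine Treg, against 220.5 to 367 CPM in lymph node Treg. Summed markers of macrophages and dendritic cells (14 genes) ranged over 172 to 498 CPM in pregnant uterine Treg, 296 to 1310 CPM in uterine Treg and 134 to 175 CPM in lymph node Treg, against 1750 to 23300 CPM in CD4conv. Summed markers of NK cells (12 genes) ranged over 158 to 248 CPM in pregnant uterine Treg, 82.6 to 152 CPM in uterine Treg and 93.8 to 131 CPM in lymph node Treg, against 632 to 2070 CPM in CD4conv. The summed T cell and Treg markers (10 genes) were lowest among Treg libraries in pregnant uterine Treg 4, at 1760 CPM, against 2780 to 7350 CPM in the other Treg libraries. They were at 1160 to 2520 CPM in CD4conv. The part of RNA from other cells in the differences of the members from CD4conv was not tested. In bulk samples like these, fewer cells of a type and less RNA per cell cannot be told apart.

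Each comparison was tested with edgeR's quasi-likelihood test and Benjamini-Hochberg adjustment, and an adjusted p under 0.05 counted as passing. The test ran over all 30096 genes with enough counts, and again over 4727 protein-coding genes that took, on average, more than 5 times the share of counts that background would give them. These are called genes above background, and a gene outside the set was not necessarily at background. Klrg1 stood at 26.2 times the background, Gata3 at 24.2, Rora at 21.7, Areg at 13.1, Il18r1 at 6.53 and Il1rl1 at 5.81. Pparg, at 3.06 times, was left out of the second test. Il1rl1 passed that filter only through the pregnant libraries: without them it stood at 3.94 times the background. The other 5 passed whichever group was left out. Log2 fold changes are given with their standard error (SE), the first-named group over the second.

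Il1rl1, the IL-33 receptor gene, stood higher in pregnant uterine Treg than in lymph node Treg and in CD4conv. Il1rl1 (ENSMUSG00000026069) lies on the plus strand of chromosome 1, 40429570 to 40465415 in GRCm38, and has 6894 exonic bases with no other annotated gene in its span. It had 218.5, 113.5, 189.5 and 84.5 CPM in pregnant uterine Treg, against 93.4, 90.1, 57.3 and 32.2 CPM in uterine Treg. It had 17.9, 30.5, 36.7 and 45.0 CPM in lymph node Treg, and 36.6, 20.4, 41.1 and 46.3 CPM in CD4conv. Every pregnant library was above every lymph node and CD4conv library, while pregnant library 4 was below 2 of the uterine Treg libraries. Uterine Treg overlapped with lymph node Treg and with CD4conv through library 5 alone. Summed endothelium markers (10 genes) ranged over 301 to 888 CPM in pregnant uterine Treg and 201 to 524 CPM in uterine Treg. They ranged over 117 to 325 CPM in lymph node Treg and 228 to 322 CPM in CD4conv. Summed mast cell markers (8 genes) overlapped between all groups, at 23.5 to 140 CPM in pregnant uterine Treg. The part of RNA from these cells in the Il1rl1 values was not tested.

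Over all genes Il1rl1 was above its CD4conv level in pregnant uterine Treg by a log2 fold change of 2.12 ± 0.587 (SE, n = 4 each, edgeR adjusted p = 0.175) and above its lymph node Treg level by 2.40 ± 0.596 (edgeR adjusted p = 0.633), and neither passed the threshold. Without the 5 libraries over 30% background both passed over all genes, against CD4conv at 2.68 (edgeR adjusted p = 0.00119) and against lymph node Treg at 2.92 (edgeR adjusted p = 0.00453). That fit keeps pregnant libraries 1 and 3 only, and the pregnant libraries it drops were the lowest of their group in Il1rl1. DESeq2 on all libraries also called both, with adjusted p = 0.0148 against CD4conv and 0.0274 against lymph node Treg, and scaling by library size only gave an edgeR adjusted p of 0.0222 against CD4conv. Among genes above background the differences were 2.22 ± 0.333 against CD4conv (edgeR adjusted p = 0.000367) and 2.42 ± 0.339 against lymph node Treg (edgeR adjusted p = 0.000514). Il1rl1 entered that set only through the libraries in which it is high, so these p-values are given as a description and not as support. In pregnant against non-pregnant uterine Treg the difference over all genes was 1.27 ± 0.573 with a 95% interval of 0.0205 to 2.52, an unadjusted p of 0.0361 and an edgeR adjusted p of 1. Among genes above background it was 1.24 ± 0.325 (edgeR adjusted p = 0.649). No gene passed in that comparison by edgeR, with an unadjusted p under 0.05 in 822 of 30096 genes and in 301 of the 4727 above background, and DESeq2 called 18 and 7 genes.

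The expected background of Il1rl1 was 29.8 CPM in pregnant library 4 and 19.4 CPM in uterine Treg library 5, where Il1rl1 had 2.84 and 1.66 times the background. With that background subtracted, pregnant library 4 was at 54.7 CPM, below uterine Treg libraries 1 (84.1) and 2 (83.7), so the groups still overlapped. After also rescaling to the counts above background, a step outside the plan, Il1rl1 ranged over 118 to 236 CPM in pregnant uterine Treg. Uterine Treg then ranged over 19.6 to 101 CPM, and the groups no longer overlapped. The same was true of 1.40% of genes above background, a set that Il1rl1 entered only through the pregnant libraries. On this scale the means were 175 ± 53.8 CPM in pregnant uterine Treg and 68.4 ± 37.6 CPM in uterine Treg (SD, n = 4 each).

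Il1rl1 of non-pregnant uterine Treg did not pass the threshold against lymph node Treg or CD4conv. Among genes above background it differed from lymph node Treg by 1.18 ± 0.33 (edgeR adjusted p = 0.109) and from CD4conv by 0.98 ± 0.324 (edgeR adjusted p = 0.0851). Without uterine Treg library 5, whose background was 34.9% of its counts, the edgeR adjusted p-values were 0.0481 against lymph node Treg and 0.0358 against CD4conv. DESeq2 gave an adjusted p of 0.0364 against lymph node Treg in this set. The same limit on how Il1rl1 entered the set holds here. Uterine Treg library 5 also had the lowest summed T cell and Treg markers of its group (2779 CPM). Its summed markers of fibroblasts (1335 CPM), epithelium (612 CPM) and macrophages and dendritic cells (1309 CPM) were the highest of the group. The part of RNA from other cells in that library was not tested.

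Il1rl1 has more than 1 annotated start, and the windows before 2 of its annotated starts are shown because GATA3, a member of the same set, binds GATA motifs. RefSeq sequences on build GRCm38.p6 held windows for 6 of the 7 genes, all but Klrg1. Each window has the 250 bases before the start, 5′ to 3′ on the strand of the gene, and the capitals mark a match to the motif AGATAA on either strand (TTATCT is the same motif on the other strand).

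Il1rl1 window 1, chr1:40429320-40429569, plus strand: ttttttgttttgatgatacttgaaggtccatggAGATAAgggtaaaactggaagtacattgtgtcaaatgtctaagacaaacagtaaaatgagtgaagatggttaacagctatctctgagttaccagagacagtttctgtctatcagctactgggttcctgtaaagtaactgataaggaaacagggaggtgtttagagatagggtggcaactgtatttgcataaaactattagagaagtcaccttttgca
Il1rl1 window 2, chr1:40439379-40439628, plus strand: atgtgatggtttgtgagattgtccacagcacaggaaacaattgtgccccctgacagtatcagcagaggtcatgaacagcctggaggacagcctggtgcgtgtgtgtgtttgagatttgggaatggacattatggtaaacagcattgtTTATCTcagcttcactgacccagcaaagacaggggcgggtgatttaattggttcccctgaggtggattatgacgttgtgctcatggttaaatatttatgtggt

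Each window held 1 match to AGATAA. Only this form was searched, so other forms of the GATA motif were not counted or marked. AGATAA on either strand was in 9.99% of the 32851 mouse promoter windows of this length. A match describes these letters and is not evidence of binding.

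Il18r1, which encodes the ligand-binding chain of the IL-18 receptor, starts directly after Il1rl1 on the same strand of chromosome 1 (ENSMUSG00000026070, 40465552 to 40500854). It had 83.65, 71.9, 78.3 and 40.3 CPM in pregnant uterine Treg and 91.3, 84.8, 76.0 and 44.5 CPM in uterine Treg, against 25.7, 36.7, 36.7 and 41.5 CPM in lymph node Treg. CD4conv had 60.6, 29.8, 34.1 and 70.4 CPM, which overlapped the values of lymph node Treg and of both uterine Treg groups. All 4 uterine Treg libraries were above all 4 lymph node libraries, and only pregnant library 4 fell below the highest lymph node library. Il18r1 was higher in pregnant uterine Treg than in lymph node Treg among genes above background, by 1.20 ± 0.304 (edgeR adjusted p = 0.0441), a call that held in 1 of 8 fits that each left out 1 library, the one without pregnant library 4 (0.0476), with edgeR adjusted p-values of 0.0720 to 0.161 in the others. It was also lost without the 5 libraries over 30% background (edgeR adjusted p = 0.208) and with scaling by library size only (0.131). The difference was 1.22 ± 0.305 (edgeR adjusted p = 0.0600) for uterine Treg against lymph node Treg, which passed with only these groups in the fit (edgeR adjusted p = 0.0470) and by DESeq2 (adjusted p = 0.0107). Pregnant and non-pregnant uterine Treg differed by -0.02 ± 0.298, with a 95% interval of -0.67 to 0.63.

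The 2 neighbouring receptor genes differed in where the highest mean stood: Il1rl1 averaged 151.5 ± 62.9 CPM in pregnant uterine Treg and 68.3 ± 29.1 CPM in uterine Treg, and Il18r1 averaged 68.5 ± 19.4 CPM in pregnant uterine Treg and 74.2 ± 20.7 CPM in uterine Treg (SD, n = 4 each). Whether the pregnancy difference of 1 gene differs from that of the other was not tested.

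Areg, the amphiregulin gene, was higher in both uterine Treg groups than in CD4conv. Areg (ENSMUSG00000029378) lies on chromosome 5, 91139599 to 91148432, plus strand, and has 1215 exonic bases. It had 72.4, 29.9, 43.7 and 5.04 CPM in pregnant uterine Treg, 56.6, 80.7, 46.3 and 12.9 CPM in uterine Treg, 21.6, 14.3, 32.6 and 17.95 CPM in lymph node Treg, and 4.26, 7.15, 7.24 and 6.385 CPM in CD4conv. The uterine Treg and the lymph node Treg libraries were all above the CD4conv libraries. Pregnant library 4, with 18 counts, was at 0.96 times its expected background, so Areg was not measurable above background there.

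Among genes above background Areg was higher in uterine Treg than in CD4conv by 2.98 ± 0.569 (edgeR adjusted p = 0.00294) and in pregnant uterine Treg than in CD4conv by 2.59 ± 0.559 (edgeR adjusted p = 0.00694), and both calls held in all 8 fits that each left out 1 library. Over all genes the edgeR adjusted p-values were 0.152 in uterine Treg and 0.265 in pregnant uterine Treg. Without the 5 libraries over 30% background both passed over all genes (0.00275 in uterine Treg and 0.00497 in pregnant uterine Treg), and DESeq2 called the difference of uterine Treg (adjusted p = 0.0102). Areg did not pass the threshold in uterine Treg against lymph node Treg (1.25 ± 0.54, edgeR adjusted p = 0.393). It differed between pregnant and non-pregnant uterine Treg by -0.39 ± 0.527, with a 95% interval of -1.54 to 0.76. Its order of mean level was uterine Treg, pregnant uterine Treg, lymph node Treg, CD4conv, and only the lymph node Treg and CD4conv among neighbours in that order had no overlap.

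The window before the Areg start is shown because it holds the full palindrome of the cAMP response element, TGACGTCA (in capitals), the motif of CREB-family factors.

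Areg, chr5:91139349-91139598, plus strand: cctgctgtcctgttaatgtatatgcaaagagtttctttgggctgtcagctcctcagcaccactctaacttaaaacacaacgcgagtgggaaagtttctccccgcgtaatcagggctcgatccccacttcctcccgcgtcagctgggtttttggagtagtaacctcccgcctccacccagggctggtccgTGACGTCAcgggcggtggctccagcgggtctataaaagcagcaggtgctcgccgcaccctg

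TGACGTCA was in 1.55% of the 32851 mouse promoter windows, and among the 6 genes with windows only Areg held it. The AP-1 motif TGANTCA, in 6.75% of promoter windows, was in none of theirs.

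Rora stood higher in both uterine Treg groups than in lymph node Treg and in CD4conv. Rora, the gene of the nuclear receptor RORα (ENSMUSG00000032238, chromosome 9, 68653786 to 69388246, plus strand), had 1086, 579, 753 and 480 CPM in pregnant uterine Treg and 719.5, 1264, 798 and 492.5 CPM in uterine Treg. It had 153, 202, 260 and 507 CPM in lymph node Treg and 221, 126, 144.5 and 377 CPM in CD4conv. Both uterine Treg groups were above all CD4conv libraries, and lymph node library 5 was the 1 lymph node library that reached into the uterine range. Antisense gene Gm15511 shares 82 exonic bases with Rora, and the library kit does not mark strand, so reads in that stretch cannot be assigned.

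In the test on genes above background Rora was higher in uterine Treg than in lymph node Treg by 1.68 ± 0.359 (edgeR adjusted p = 0.0242), than in CD4conv by 2.00 ± 0.362 (edgeR adjusted p = 0.00178), and pregnant uterine Treg exceeded CD4conv by 1.94 ± 0.361 (edgeR adjusted p = 0.00221). The comparisons with CD4conv held in all 8 fits that each left out 1 library. The lymph node comparison of uterine Treg held in 3 of 8, and was lost without lymph node library 1 (0.0939), 2 (0.128) or 3 (0.0890) and without uterine Treg library 2 (0.0866) or 3 (0.0814; all edgeR adjusted p). Pregnant uterine Treg against lymph node Treg gave 1.61 ± 0.358 (edgeR adjusted p = 0.0214), which held in 4 of 8 and was lost without lymph node library 1 (0.0817), 2 (0.0962) or 3 (0.0639) or pregnant library 1 (0.0568; all edgeR adjusted p). Both calls against lymph node Treg were also lost without the 5 libraries over 30% background (edgeR adjusted p = 0.193 in uterine Treg and 0.198 in pregnant uterine Treg) and with scaling by library size only (0.067 in uterine Treg and 0.0645 in pregnant uterine Treg). Over all genes Rora did not pass in any comparison on all libraries with the main settings. Without the 5 libraries it passed over all genes against CD4conv, in uterine Treg (edgeR adjusted p = 0.0104) and in pregnant uterine Treg (0.0141), and DESeq2 and library size scaling called it in uterine Treg against CD4conv (adjusted p = 0.0365 and 0.0488). Pregnant and non-pregnant uterine Treg differed in Rora by -0.07 ± 0.349 among genes above background, with a 95% interval of -0.83 to 0.69.

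Gata3, whose product drives the type 2 program and sustains Treg in inflamed tissue in mice, differed little between the Treg groups. Gata3 (ENSMUSG00000015619, chromosome 2, 9857078 to 9890034, minus strand) had 235, 123, 238 and 94.6 CPM in pregnant uterine Treg, 281, 281, 165 and 89.6 CPM in uterine Treg, 198, 199, 157 and 239 CPM in lymph node Treg and 150, 101, 79.55 and 145 CPM in CD4conv. Every lymph node library was above every CD4conv library, and all other pairs of groups overlapped. Gata3 differences in the test on genes above background were 0.15 ± 0.255 (95% interval -0.41 to 0.71) for uterine Treg against lymph node Treg and 0.83 ± 0.256 (edgeR adjusted p = 0.0611) for uterine Treg against CD4conv, which became 0.0106 without uterine Treg library 5 and 0.0184 without the 5 libraries over 30% background, and which DESeq2 called (adjusted p = 0.0345). Of its exonic bases, 232 are shared with antisense gene Gm13256 and with 9230102O04Rik, which limits how those reads are assigned.

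Pparg, the gene of the nuclear receptor that defines fat-tissue Treg in mice, was near background. Pparg (ENSMUSG00000000440, chromosome 6, 115360951 to 115490399, plus strand) had 6.02, 17.97, 17.45 and 36.4 CPM in pregnant uterine Treg, 3.185, 0.534, 24.6 and 16.3 CPM in uterine Treg, 1.905, 17.6, 27.9 and 15.2 CPM in lymph node Treg and 11.7, 23.65, 27.96 and 11.99 CPM in CD4conv. All groups overlapped. Its level was between 0.194 and 10.6 times the expected background and below it in 3 libraries, uterine Treg 1 and 2 and lymph node Treg 1. It stood at 10.6 and 7.79 times the background in CD4conv libraries 2 and 3 and at 8.44 times in pregnant library 3. These 2 CD4conv libraries had the highest summed macrophage and dendritic cell markers (17670 and 23300 CPM), and the part of those cells was not tested. The highest value among Treg, in pregnant library 4, came from the library with the highest background (53.5%). No comparison of Pparg passed the threshold (edgeR adjusted p between 0.999 and 1), and a difference was not detectable at this background.

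Klrg1 stood higher in both uterine Treg groups than in CD4conv. Klrg1 (ENSMUSG00000030114, chromosome 6, 122270596 to 122282882, minus strand, 1414 exonic bases) had 94.8, 119, 147 and 16.8 CPM in pregnant uterine Treg, 175.5, 154, 109.5 and 52.5 CPM in uterine Treg, 34.6, 37.6, 46.0 and 36.9 CPM in lymph node Treg and 9.51, 0.325, 12.2 and 19.55 CPM in CD4conv. Every uterine Treg library was above every lymph node library, and every lymph node library was above every CD4conv library. Pregnant library 4 was the exception in its group, at 16.8 CPM and 2.75 times its background, below the CD4conv library with the highest value. CD4conv library 2, with 4 counts, was below its expected background.

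Klrg1 was higher in uterine Treg than in CD4conv by 3.63 ± 0.815 over all genes (edgeR adjusted p = 0.0367), the only member to pass in that test, and by 3.65 ± 0.71 among genes above background (edgeR adjusted p = 0.00377). The call over all genes held in 2 of 8 fits that each left out 1 library. It was lost without CD4conv library 1, 2 or 3 or uterine Treg library 1, 2 or 3, with edgeR adjusted p-values of 0.0567 to 0.140. The call among genes above background held in all 8. In pregnant uterine Treg against CD4conv the difference was 3.31 ± 0.699 among genes above background (edgeR adjusted p = 0.00637, held in all 8, but 0.0733 when only these 2 groups were in the fit) and 3.36 ± 0.804 over all genes (edgeR adjusted p = 0.0652). With the replicate number as a block the difference over all genes was 3.78 and passed (edgeR adjusted p = 0.0356), and it also passed without the 5 libraries over 30% background (0.00901) and by DESeq2 (adjusted p = 0.00293). NK cells also express Klrg1. The summed NK cell markers were at 82.6 to 248 CPM in the Treg libraries, against 632 to 2070 CPM in CD4conv, while Gzmb of that list was called higher in pregnant uterine Treg against CD4conv among genes above background, and the part of NK cells in the Klrg1 values was not tested. Klrg1 did not pass the threshold in uterine Treg against lymph node Treg (1.76 ± 0.662, edgeR adjusted p = 0.285) although the groups did not overlap, and it passed with only these groups in the fit (1.77, edgeR adjusted p = 0.00689).

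**Figure D1:**
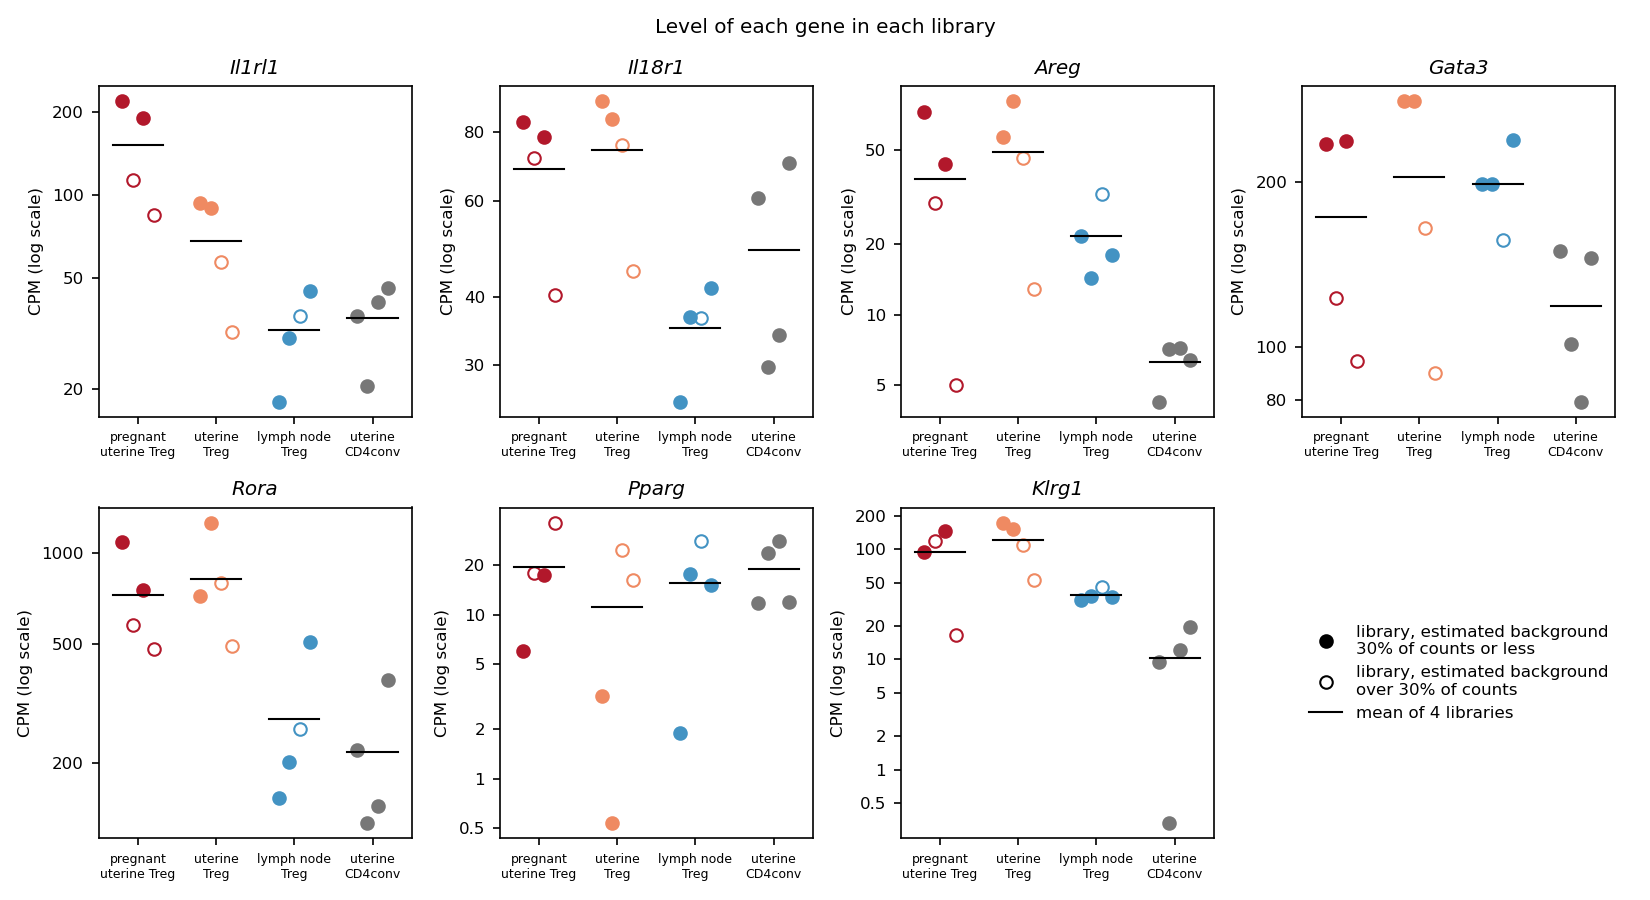
Level of the 7 genes in each library, in CPM on a log scale, by group. Each point is 1 library, open points are the 5 libraries with an estimated background over 30% of counts, and lines are means of 4 libraries. Il1rl1 is highest in the pregnant group, and Klrg1, Rora and Areg are higher in uterine Treg than in CD4conv.

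**Figure D2:**
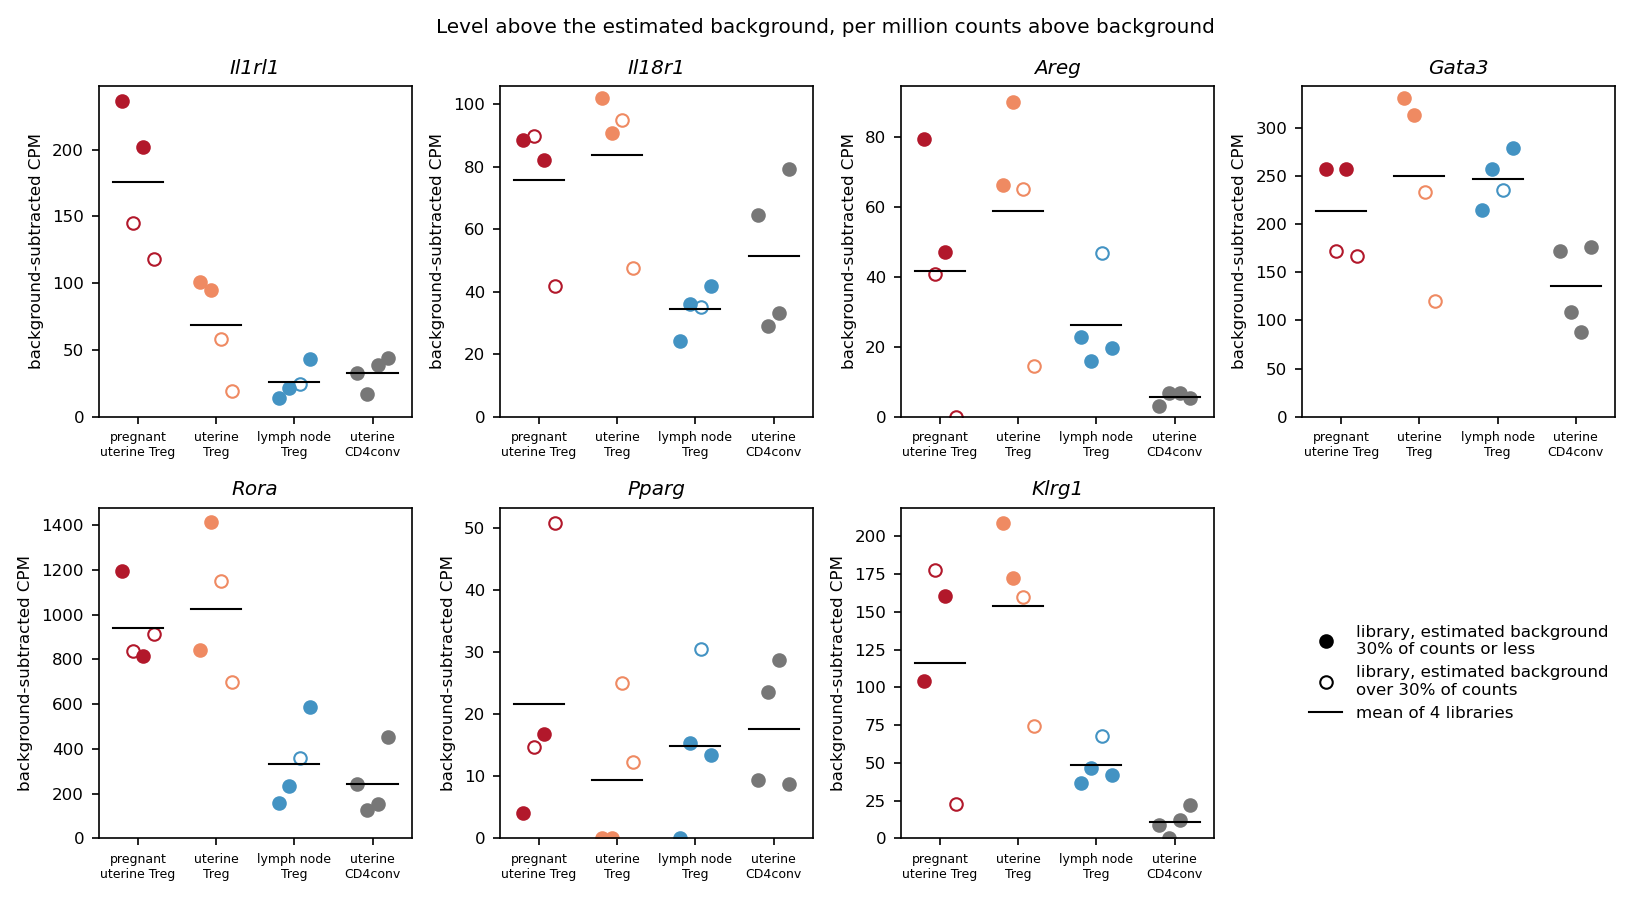
The same genes after subtracting each library's expected background and rescaling to counts above background, on linear axes from 0; a gene below its background is drawn at 0. Pregnant uterine Treg (118 to 236 CPM) lie above uterine Treg (19.6 to 101 CPM) for Il1rl1, and these groups overlap when background is subtracted without rescaling.

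Compared per exonic kilobase, the level that can be set beside other genes, uterine Treg held most Klrg1 (86.9 ± 38.5 CPM per kilobase), then Rora (62.6 ± 24.8), Gata3 (51.3 ± 23.6), Areg (40.4 ± 23.2), Il18r1 (15.4 ± 4.30), Il1rl1 (9.90 ± 4.22) and Pparg (3.78 ± 3.83; SD, n = 4 each). In pregnant uterine Treg Il1rl1 stood at 22.0 ± 9.12 CPM per kilobase and Il18r1 at 14.2 ± 4.03. In CD4conv Gata3 led with 29.9 ± 8.59 CPM per kilobase, followed by Rora with 16.6 ± 8.73.

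Across all 5 comparisons the calls can be counted and set beside the share of all genes called in the same direction. For uterine Treg against lymph node Treg 0 of 7 members passed over all genes, where 0% of genes were called higher. Rora alone passed among genes above background, where 0.931% were called higher. For uterine Treg against CD4conv 1 member passed over all genes (0.0332% called higher), and Areg, Rora and Klrg1 passed among genes above background (3.11% called higher). Pregnant against non-pregnant uterine Treg had no member past the threshold in either test (0% called higher in both). For pregnant uterine Treg against CD4conv 0 members passed over all genes (0.0332% called higher), and Areg, Rora and Klrg1 passed among genes above background (4.10% called higher). For pregnant uterine Treg against lymph node Treg 0 members passed over all genes (0% called higher), and Rora and Il18r1 passed among genes above background (1.57% called higher). Il1rl1 passed in that set in both comparisons too, and is not counted because it entered the set only through the pregnant libraries. No member was called lower, beside 0.360%, 2.98%, 0%, 4.27% and 0.783% of genes above background called lower in these 5 comparisons in the order given. These comparisons share groups, so they are not separate pieces of evidence.

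The counts of 0 over all genes stand beside members with an unadjusted edgeR p under 0.05, and beside the share of all genes tested with one. These were 2 of 7 in uterine Treg against lymph node Treg (3.01% of genes), 1 in pregnant against non-pregnant uterine Treg (2.73%), 4 in pregnant uterine Treg against CD4conv (4.79%) and 2 in pregnant uterine Treg against lymph node Treg (3.10%). Among genes above background the shares of all genes were larger, at 10.9%, 6.37%, 24.2% and 15.7% in the same order. DESeq2 over all genes called 0, 0, 2 and 1 members in these comparisons, beside 30, 18, 311 and 42 of all genes, and it called 3 members (Areg, Rora and Klrg1) and 335 genes in uterine Treg against CD4conv. The median log2 fold change of the 7 members over all genes was 1.13 in uterine Treg against lymph node Treg, beside -0.06 for all genes tested. It was 0.85 against CD4conv, beside -0.05. It was -0.09 in pregnant against non-pregnant uterine Treg, beside 0.11.

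Not overlapping is a coarser reading that needs no model. It held for 2 of 7 members in uterine Treg against lymph node Treg, Klrg1 and Il18r1 (1.22% of all genes tested were higher in this way). Areg, Rora and Klrg1 did not overlap in uterine Treg against CD4conv (1.68%). Il1rl1 and Rora did not overlap in pregnant uterine Treg against CD4conv (1.31%), and Il1rl1 alone against lymph node Treg (1.62%). In pregnant against non-pregnant uterine Treg it held for none (0.532%). These are shares of all genes tested, while 6 of the 7 members stood above background. The shares among genes above background are not given for this reading, so the 2 cannot be set beside each other closely.

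**Figure D3:**
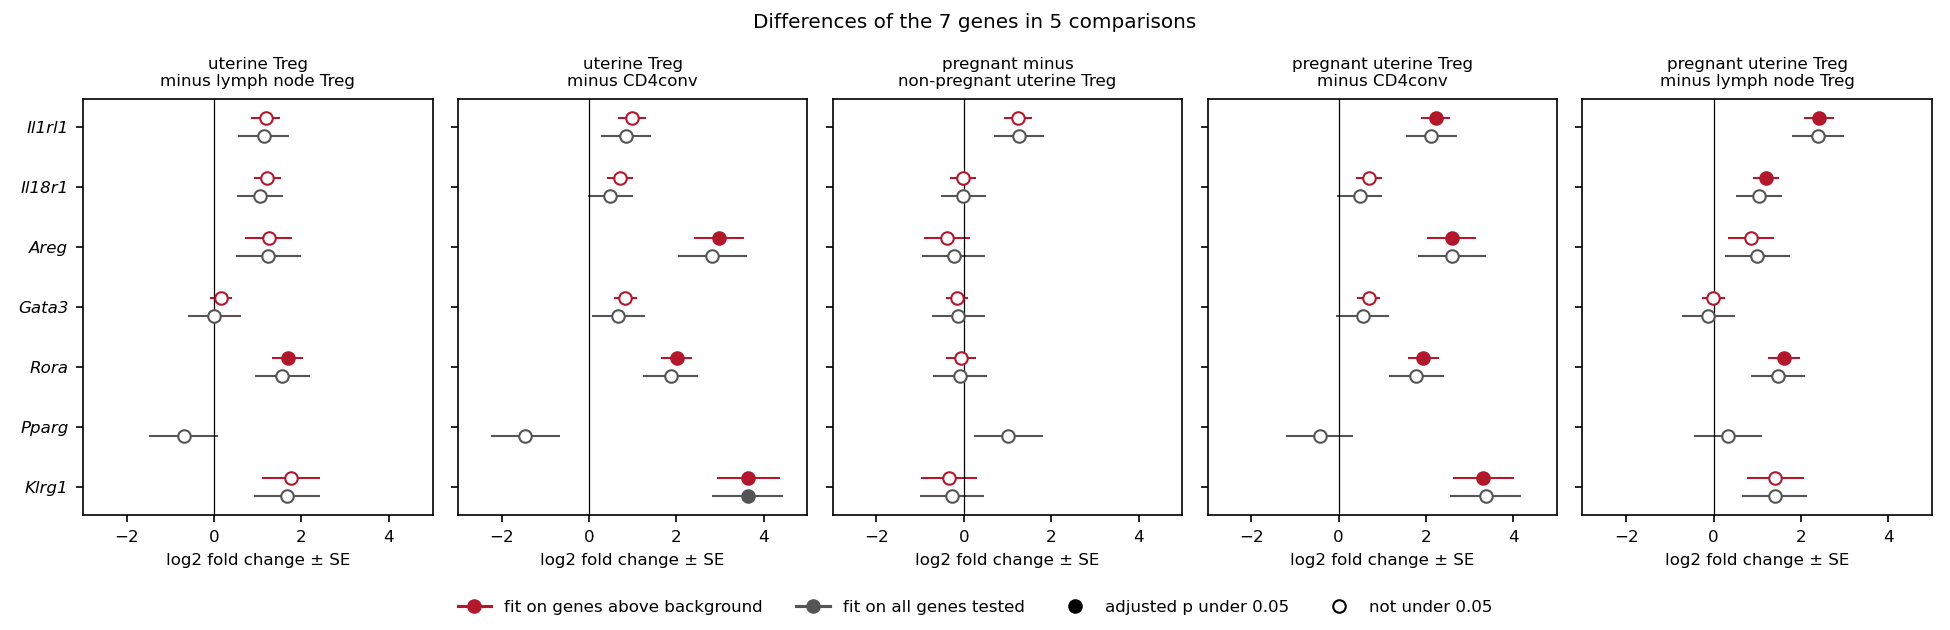
Log2 fold changes with SE of the 7 genes in 5 comparisons, by edgeR over all genes tested and over genes above background. Filled points pass the adjusted p threshold of 0.05, and Pparg has only the test over all genes. The Il1rl1 difference between pregnant and non-pregnant uterine Treg among genes above background is at 1.24 ± 0.325 and is not filled.

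The rest of the IL-33 and IL-18 system gave no call. Of 20 other receptors, ligands and adaptors of the IL-1 family, 9 stood above background, and 0 passed the threshold in any of the 5 comparisons. The most abundant were Traf6 and Irak1, signal transducers downstream of MyD88, and Sigirr, an inhibitory receptor of the family. Irak1 averaged 75.8 ± 45.6 CPM in pregnant uterine Treg and 143 ± 34.0 CPM in uterine Treg (SD, n = 4 each), a difference of -0.95 ± 0.317 that did not pass (edgeR adjusted p = 0.675). Il1rap, which encodes the partner chain of ST2, was under the limit of 5 times the background, with 36.4 ± 20.9 CPM in pregnant uterine Treg and 53.4 ± 14.3 CPM in uterine Treg.

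Among 17 genes of the epidermal growth factor family, its sheddases and receptors, 4 stood above background. Lrig1, a feedback inhibitor of the receptor, was higher in uterine Treg than in CD4conv by 1.61 ± 0.394 (edgeR adjusted p = 0.0179), a call that was lost without CD4conv library 2 or 3, and it did not pass in the other comparisons. Over all genes Lrig1 did not pass (edgeR adjusted p = 0.744 for uterine Treg against CD4conv). Its mean was highest in lymph node Treg, at 314 ± 128 CPM, against 251 ± 44.3 CPM in uterine Treg (SD, n = 4 each). Adam17 and Adam10, proteases of the class that releases amphiregulin from the cell, did not pass in any comparison: Adam17 averaged 166 ± 48.7 CPM in pregnant uterine Treg, against 114 ± 8.67 CPM in uterine Treg (0.64 ± 0.27, edgeR adjusted p = 0.745).

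Tissue Treg genes named by other studies divided by comparison. Of 24 genes, 18 stood above background. Uterine Treg against CD4conv had 7 higher and 2 lower, beside 3.11% of all genes above background called higher and 2.98% called lower. Pregnant uterine Treg against CD4conv had 8 higher and 1 lower, beside 4.10% and 4.27%. In uterine Treg against lymph node Treg 1 was higher and 2 lower (0.931% and 0.360%), in pregnant uterine Treg against lymph node Treg 4 were higher and 3 lower (1.57% and 0.783%), and in pregnant against non-pregnant uterine Treg none passed. The median log2 fold change of the 18 genes against CD4conv was 0.97 in uterine Treg, beside 0.02 for all genes above background, and 0.88 in pregnant uterine Treg, beside 0.03. Over all genes, Itgae alone was higher and Cxcr6 alone lower in uterine Treg against CD4conv. Itgae alone was called in pregnant uterine Treg against CD4conv, and no gene of the list in the other comparisons. Whether a listed gene would stay in the set above background without the group where it is highest was not checked. The p-values of listed genes in that set are therefore given as a description.

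Itgae, the CD103 integrin chain that binds E-cadherin, was higher by 4.30 ± 0.46 in pregnant uterine Treg (edgeR adjusted p = 1.05e-05) and by 3.43 ± 0.444 in uterine Treg (edgeR adjusted p = 0.000105) than in CD4conv. It had 141 to 390 CPM in pregnant uterine Treg and 120 to 191 CPM in uterine Treg, against 170 to 247 CPM in lymph node Treg and 2.03 to 24.3 CPM in CD4conv. The inhibitory receptor gene Tigit (2.29 and 2.15) and the costimulatory receptor gene Tnfrsf18 (1.35 and 1.66) were higher than in CD4conv in pregnant and non-pregnant uterine Treg, and these calls held in all 8 fits that each left out 1 library. Id2, a regulator of tissue lymphocytes, was lower in both (-1.36 and -1.41). Cxcr6, a homing receptor, was lower in uterine Treg than in CD4conv (-3.56 ± 0.858, edgeR adjusted p = 0.0163). It had 26.9 to 128 CPM in CD4conv, and whether it would enter the set without that group was not checked. Over all genes the Cxcr6 difference was -3.74 ± 0.869 (edgeR adjusted p = 0.0474). Tnfrsf4, a costimulatory receptor gene, was higher in uterine Treg than in CD4conv by 1.78 ± 0.358 (edgeR adjusted p = 0.00452), and Il10, the gene of an anti-inflammatory cytokine, was above CD4conv in pregnant uterine Treg by 2.22 ± 0.548 (edgeR adjusted p = 0.0175). Both genes were highest in lymph node Treg. Tnfrsf4 had 562 to 716 CPM there, against 194 to 372 CPM in uterine Treg. Il10 had 43.0 to 59.4 CPM there, against 13.3 to 32.4 CPM in pregnant uterine Treg. The summed macrophage and dendritic cell markers and the summed NK cell markers were higher in every CD4conv library than in every Treg library. Of the macrophage and dendritic cell markers above background, 4 of 10 were called lower in uterine Treg and 7 of 10 in pregnant uterine Treg, and of the NK cell markers 4 of 6 in each, with Gzmb called higher in pregnant uterine Treg. Their part in the differences from CD4conv was not tested.

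Genes of this list that set uterine from lymph node Treg went both ways. Ccr8, a chemokine receptor of activated Treg, had 10.1 to 26.1 CPM in pregnant uterine Treg and 18.8 to 32.2 CPM in uterine Treg, against 90.8 to 154 CPM in lymph node Treg. Penk, the proenkephalin gene, had 6.94 to 16.7 CPM in pregnant uterine Treg and 10.6 to 35.6 CPM in uterine Treg, against 95.6 to 115 CPM in lymph node Treg. Ccr2, a receptor for entry into inflamed tissue, had 146 to 644 CPM in pregnant uterine Treg and 100 to 249 CPM in uterine Treg, against 61.9 to 77.1 CPM in lymph node Treg. Differences of pregnant uterine Treg from lymph node Treg in these genes were -2.38 ± 0.411, -2.76 ± 0.518 and 2.57 ± 0.356 (edgeR adjusted p = 0.00364, 0.00669 and 0.000514), and each held in all 8 fits that left out 1 library. Those of uterine Treg from lymph node Treg were -2.03, -2.29 and 1.5, calls that held in 2, 1 and 1 of 8. Over all genes none of these passed, with edgeR adjusted p = 0.354, 0.135 and 0.88 for pregnant uterine Treg. Ccr8 and Penk are highest in lymph node Treg, and whether they would enter the set without that group was not checked. The CD25 gate differed together with the tissue, and its part was not tested. Monocytes also express Ccr2. All 10 macrophage and dendritic cell markers above background were on the higher side against lymph node Treg, with a median of 1.99 in pregnant uterine Treg and 2.33 in uterine Treg and none called, and Fcer1g and Tyrobp, listed as NK cell markers and also expressed by macrophages, were called higher in both. The part of these cells was not tested.

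The remaining calls of this list were lost in at least 1 fit that left out a library. For uterine Treg against CD4conv these were Penk (2.20), Irf4 (1.36), a transcription factor of effector Treg, and Nfil3 (0.97). For pregnant uterine Treg against CD4conv they were Icos (1.33), a costimulatory receptor gene, Penk (1.72), Tnfrsf4 (1.17) and Maf (1.28). For pregnant uterine Treg against lymph node Treg they were Icos (1.31), Maf (1.51), Lgmn (2.52) and Tnfrsf4 (-1.57). Lgmn, a lysosomal protease gene that macrophages also express, had 32.5 to 148 CPM in pregnant uterine Treg and 14.7 to 22.4 CPM in lymph node Treg, and the macrophage and dendritic cell markers, at 172 to 498 CPM in pregnant uterine Treg and 134 to 175 CPM in lymph node Treg, moved the same way; their part was not tested. The 3 most abundant genes of the list were Bhlhe40, Cd69 and Icos, and of these Bhlhe40 and Cd69 did not pass in any comparison.

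Type 2 genes other than Gata3 gave calls for 1 gene among genes above background and none over all genes. Of 12, 6 stood above background, and only Tox, a transcription factor of lymphoid development and persistent stimulation, passed the threshold. Tox was higher than in CD4conv in pregnant uterine Treg (1.77 ± 0.263, edgeR adjusted p = 0.000359) and in uterine Treg (2.02 ± 0.265, edgeR adjusted p = 0.000116). Its mean in lymph node Treg, 146 ± 21.4 CPM, lay between those of pregnant uterine Treg (138 ± 46.2) and uterine Treg (172 ± 52.7; SD, n = 4 each). Il4ra, Il2rg and Tcf7, the most abundant, did not pass in any comparison.

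Of 12 genes that share targets with RORα or form the circadian clock, 4 stood above background, and none of the 12 passed over all genes. Cry1, a clock repressor, was above CD4conv in pregnant uterine Treg by 1.55 ± 0.311 (edgeR adjusted p = 0.00392, held in all 8), and by 1.08 and 1.21 in uterine Treg against CD4conv and pregnant uterine Treg against lymph node Treg, calls that held in 3 and 1 of 8. Per1, Nr1d2 and Clock, the most abundant, did not pass, and Clock was under the limit of 5 times the background. Of 18 genes of PPARγ partners, targets and lipid handling, 5 stood above background, and none of the 18 passed over all genes. Plin2, the coat protein of lipid droplets, was lower in pregnant uterine Treg (7.83 to 45.7 CPM) than in CD4conv (20.5 to 258 CPM), by -2.43 ± 0.63 (edgeR adjusted p = 0.0227), a call lost in 4 of 8 fits that each left out 1 library. Whether Plin2 would enter the set without CD4conv was not checked. Ncor1 and Cpt1a did not pass, and Med1 was under the limit of 5 times the background.

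KLRG1 binds cadherins and signals through phosphatases. Of 6 listed genes of cadherins and of phosphatases of inhibitory receptors, 3 stood above background. Among them Ptpn6, which encodes the phosphatase SHP-1, was lower in both uterine Treg groups than in lymph node Treg and in CD4conv. Whether SHP-1 acts with KLRG1 in these cells was not tested. Ptpn6 had 23.2 to 140 CPM in pregnant uterine Treg and 53.5 to 106 CPM in uterine Treg, against 181 to 267 CPM in lymph node Treg and 214 to 508 CPM in CD4conv. It differed from CD4conv by -2.08 ± 0.329 in pregnant uterine Treg (edgeR adjusted p = 0.000582) and by -2.07 ± 0.331 in uterine Treg (edgeR adjusted p = 0.000637), both in all 8 fits that left out 1 library. It differed from lymph node Treg by -1.34 in both, calls that held in 2 and 0 of 8. Over all genes Ptpn6 did not pass in any comparison. Macrophages and NK cells express Ptpn6 as well, and their summed markers were higher in CD4conv. Their part was not tested. Inpp5d, the gene of another phosphatase on this list, did not pass in any comparison, and Ptpn11 was not above background. A place on the list does not show that a phosphatase acts with KLRG1.

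**Figure D4:**
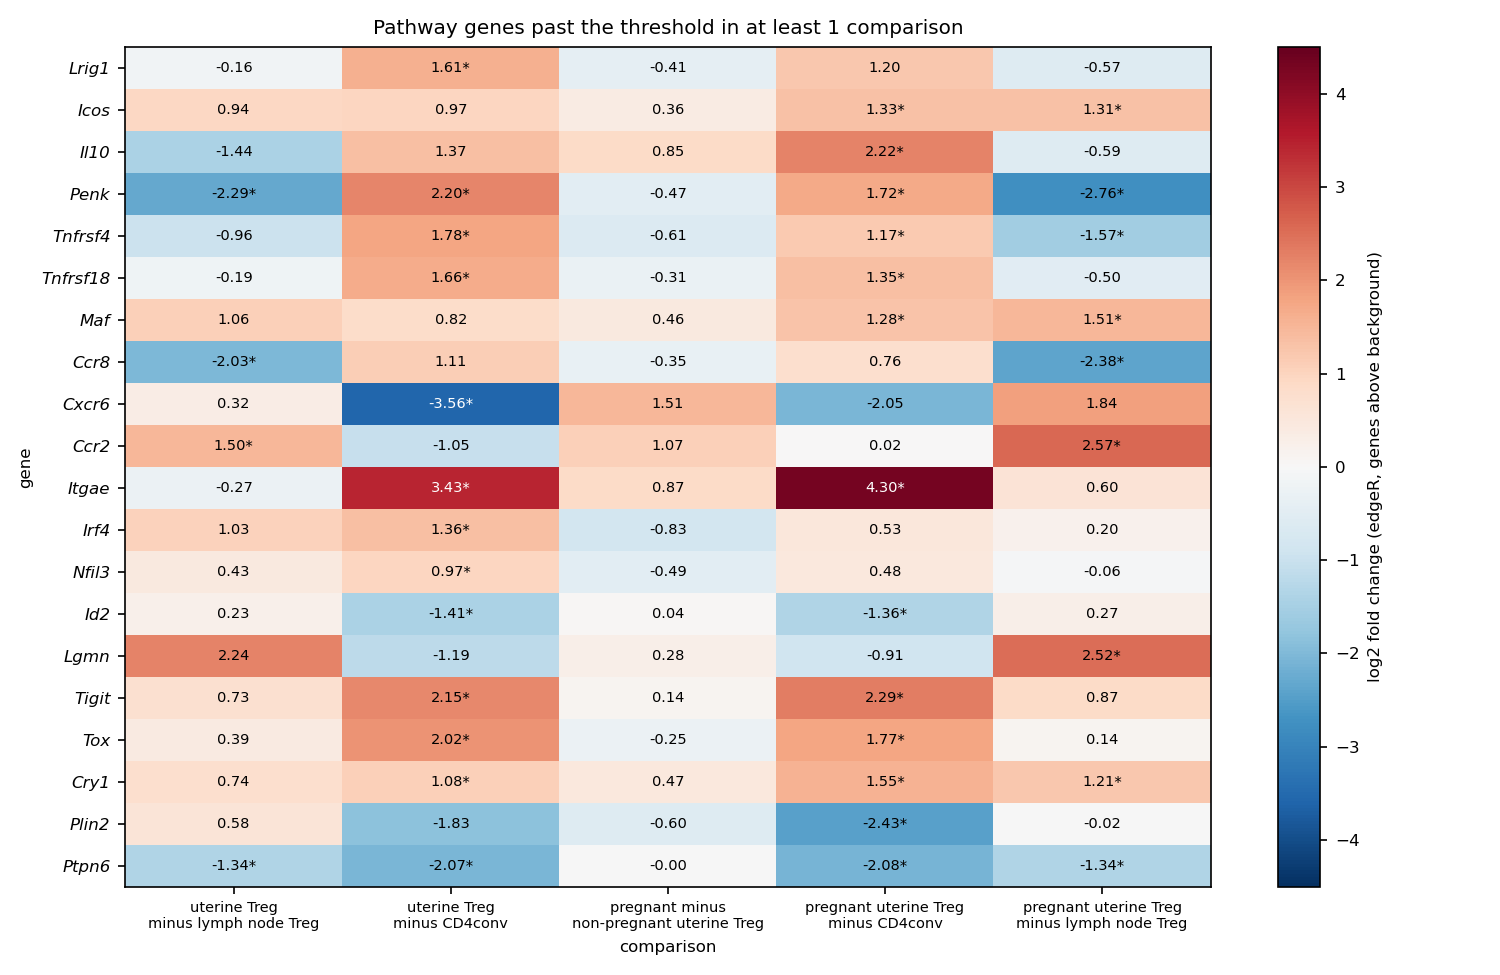
Log2 fold changes (edgeR, genes above background) of the pathway genes that passed the threshold in at least 1 of 5 comparisons; an asterisk marks an adjusted p under 0.05. The comparisons with CD4conv hold most asterisks and the pregnancy comparison none.

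As a description, the genes whose log2 CPM ran most closely with each member over the 16 libraries were found among 4716 genes above background. Il1rl1 ran with Glrx (r = 0.905), Rfk (0.893) and Gzmb (0.888), the last the gene of a cytotoxic protease. Areg ran with Acsbg1 (0.933), Pim1 (0.913) and P4ha1 (0.909). Gata3 ran with Cd6 (0.985), H2-Q6 (0.977) and Shisa5 (0.970), and Rora with Rnf125 (0.891), Fam129a (0.890) and Ppil1 (0.890). Klrg1 ran with St8sia6 (0.918), Lrrc32 (0.903), which encodes a Treg surface protein that binds latent TGF-β, and Gbp2b (0.895). Il18r1 ran with Abcb1a (0.964), Slamf6 (0.935) and Emb (0.927), and Pparg with I830077J02Rik (0.798), Cdk7 (0.788) and Cd36 (0.774). All points share the libraries' differences in background and group, and none of these values was tested.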

How the data were processed

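RNA from sorted, pooled cells was amplified with SMART-Seq v4 and made into Nextera XT libraries, which do not mark strand for paired-end Illumina sequencing, per the labels' protocols. The deposited values are whole-number read counts per gene made by the authors; the submitters' processing notes name Trimmomatic, HISAT2, SAMtools, featureCounts and DESeq2 and build GRCm38, with no versions or settings. Exons and positions come from the GENCODE M21 annotation and promoter windows from RefSeq.

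Counts were tested with edgeR 4.0.16 in R 4.3.3 (TMM scaling, filterByExpr, robust quasi-likelihood fit over all 16 libraries with 1 coefficient per group, 12 residual degrees of freedom) with Benjamini-Hochberg adjustment. SE is the absolute log2 fold change over the square root of F, and 95% intervals use 12 degrees of freedom. The fit was repeated, with TMM recomputed, on protein-coding genes with a mean share over 5 times the background per exonic base (4732 genes, 4727 tested). This set was listed as an alternative, and it shifted the median log2 fold change of its genes: -0.22 over all genes and 0.05 in its own fit for uterine against lymph node Treg, and -0.29 and 0.02 for uterine Treg against CD4conv. DESeq2 1.42.0, other scalings, no filter, fewer libraries, the replicate number as a block and each library left out in turn were tried as alternatives. CPM is counts per 1e6 of a library's total; no library was left out of the levels.

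The named genes are the 7 members, every gene of 7 pathway lists past the threshold in any comparison, the 3 most abundant tested genes of each list, and the 3 genes most correlated with each member. The members and lists were chosen with earlier results of these data known. The p-values measure the spread between pools. Libraries numbered 1, 2 and 3 in the descriptions correlated, as deviations from their group means, at 0.100, 0.108 and 0.103 between pregnant uterine Treg and CD4conv, each just over the limit of 0.1 set for pairing, while other groups were below it for at least 1 number. The labels name no shared litter or day.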

Additional observations from a re-analysis of the deposited data

How the results depend on the processing

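These counts, calls and directions changed under an alternative. Among members, counts past the threshold over all genes were 0, 1, 0, 0 and 0 in uterine Treg against lymph node Treg, uterine Treg against CD4conv, pregnant against non-pregnant uterine Treg, pregnant uterine Treg against CD4conv, and pregnant uterine Treg against lymph node Treg, and 1, 3, 0, 4 and 3 among genes above background. Over all genes they became 2 (uterine Treg against CD4conv) and 2 (pregnant uterine Treg against CD4conv) with library size only, 1 with DESeq2 size factors and 1 with no filter (both pregnant uterine Treg against CD4conv). Il1rl1 is in the counts of 4 and 3, and it entered the genes above background only through the pregnant libraries. Without the 5 libraries over 30% background they were 3, 4 and 1 in uterine Treg against CD4conv and pregnant uterine Treg against CD4conv and lymph node Treg, and with DESeq2 3, 2 and 1. All genes called over all genes were 0, 156, 0, 130 and 0; they became 61, 288, 0, 396 and 111 among genes above background, 30, 335, 18, 311 and 42 with DESeq2, 2, 427, 4, 230 and 11 without the 5 libraries, 78 with only the groups compared (pregnant uterine Treg against CD4conv) and 5 with library size only (pregnant uterine Treg against lymph node Treg).

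Among genes above background, the tissue comparison called 0 members and 17 genes without the 5 libraries, 0 and 34 with library size only, 3 and 115 with only the 2 groups, and 3 and 134 with DESeq2. DESeq2 called 438, 7, 618 and 248 genes in the other 4 comparisons in the order above. Without the 5 libraries pregnant against non-pregnant uterine Treg had 1 gene, and pregnant uterine Treg against lymph node Treg had 1 member and 36 genes. That comparison had 1 member with library size only, and pregnant uterine Treg against CD4conv had 164 genes with only its groups. The cause of these differences was not tested.

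Leaving out 1 library at a time gave, over all genes, 0 to 1 members and 72 to 170 genes (uterine Treg against CD4conv), 0 to 3 and 72 to 162 (pregnant uterine Treg against CD4conv), 0 members and 0 to 1 genes (pregnant uterine Treg against lymph node Treg) and 0 in the other comparisons. Among genes above background it gave 0 to 3 members and 19 to 62 genes (uterine against lymph node Treg), 3 to 5 and 184 to 329, 0 and 0 (pregnant against non-pregnant), 4 to 4 and 244 to 471, and 1 to 3 and 41 to 118. Without pregnant library 4, Il1rl1 (0.0481), Areg (0.0439) and Klrg1 (0.00968; edgeR adjusted p over all genes) passed in pregnant uterine Treg against CD4conv.

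Directions that turned belonged to differences near 0, none of them called. Leaving out 1 library, the pregnancy differences ranged over -0.89 to 0.41 (Areg), -0.50 to 0.32 (Gata3), -0.52 to 0.52 (Rora; -0.187 to 0.0908 among genes above background), -0.81 to 0.12 (Klrg1) and -0.28 to 0.29 (Il18r1; -0.139 to 0.0893). Gata3 ranged over -0.43 to 0.30 in uterine against lymph node Treg and -0.50 to 0.19 in pregnant uterine against lymph node Treg (-0.066 to 0.0797 among genes above background), and Pparg over -0.0139 to 0.589 in pregnant uterine against lymph node Treg. Gata3 was at -0.12 in uterine against lymph node Treg with the replicate block and, without the 5 libraries, at 0.30 (0.13 among genes above background) in pregnant uterine against lymph node Treg. Il18r1 was at 0.0258 in the pregnancy comparison with no filter, and Pparg at 0.0496 in pregnant uterine Treg against CD4conv with library size only.

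By their labels' numbers (1, 2, 3 and 5), same-numbered libraries of uterine and lymph node Treg correlated at 0.139, -0.265, 0.340 and -0.083. Those of uterine Treg and CD4conv correlated at 0.120, 0.089, 0.063 and -0.209. The 3 non-pregnant groups carry the same numbers. Whether same-numbered libraries came from the same mice is not given in the labels. These correlations cannot settle it. The replicate block left the member counts at 0 and 1 over all genes and 1 and 3 among genes above background, and moved the count of genes above background to 39 for uterine against lymph node Treg. Pregnant libraries are numbered 1 to 4 and share 1, 2 and 3 with the other groups. Same-numbered pairs correlated at 0.141, -0.067 and -0.233 with uterine Treg and at 0.305, -0.0245 and -0.363 with lymph node Treg. A replicate block over all 16 libraries, chosen after seeing the data, leaves pregnant library 4 in a block of its own, so that it adds nothing to the comparisons. It gave 1 member over all genes in pregnant uterine Treg against CD4conv (Klrg1). Il18r1 against lymph node Treg did not pass with it among genes above background (edgeR adjusted p = 0.0882), and it changed no other call of a member. Under this block the pregnancy differences over all genes were 0.098 (Areg), 0.255 (Gata3), 0.244 (Rora) and 0.268 (Il18r1), and among genes above background 0.00866 (Rora) and 0.0365 (Il18r1). Gata3 in pregnant uterine against lymph node Treg was at 0.175 (0.0144 among genes above background). Depth and background limit what the 5 libraries over 30% background, with 1718558 to 4785500 counts, can show for low genes.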
